A study of Mus musculus with 7 samples.

Results

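The genes of the cytosolic ribosomal proteins were followed on 7 Illumina mouse bead arrays, 1 array per RNA sample. Members were the genes whose symbol in the platform annotation starts with Rpl or Rps followed by a digit, or is Rplp0, Rplp1, Rplp2 or Rpsa, leaving out the ribosomal S6 kinases and symbols ending in -ps. The array carried 84 such probes of 66 genes, among 25697 probes in all. A detection p-value under 0.01, taken here as above background, was reached on at least 1 array by 73 of these probes, which stood for 60 of the 9263 genes tested. The other 6 genes (Rpl14, Rpl17, Rpl6, Rplp2, Rps23 and Rps23rg1) had no probe above background on any array, so their level was not measured. Of the 60 genes, 22 encode proteins of the small 40S subunit, 31 proteins of the large 60S subunit, and 7 are paralogues or named partners (Rpl3l, Rpl7l1, Rpl22l1, Rpl36al, Rpl39l, Rps27l and Rps19bp1).

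All samples came from OG2 mice, a strain with a green fluorescent protein reporter under control of Pou5f1 sequence. One array held lineage-negative bone marrow cells (LinNeg_BM), the immature fraction depleted of cells that carry mature lineage markers. Induced pluripotent stem cells made from that fraction gave 3 arrays, of the lines 1.1.2, 7 and 9 (LinNeg_iPSC). Single arrays held embryonic stem cells (ESC), line 1.1 of induced pluripotent stem cells made from lineage-positive bone marrow (LinPos_iPSC), and induced pluripotent stem cells made from embryonic fibroblasts (MEF_iPSC). The age of the animals, the reprogramming factors and whether cells of several animals were pooled were not given in the sources used here, and the tissue field reads bone marrow for all 7 samples. Whether the 3 lines came from separate animals was not stated either, so the p-values below measure only the spread between these lines.

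A ribosome joins ribosomal RNA and one copy of most ribosomal proteins into a small subunit, which reads the messenger RNA, and a large subunit, which forms the peptide bonds. Both subunits are put together in the nucleolus with many assembly factors, starting from the RNA polymerase I transcript. Ribosomal protein messenger RNAs are among the most abundant in growing cells, and most begin with a terminal oligopyrimidine tract that places their translation under control of the mTOR kinase and the RNA-binding protein Larp1. In bone marrow, loss of 1 copy of several of these genes in people (RPS19, RPS24, RPS26 and RPL5 among them) causes Diamond-Blackfan anaemia, a failure of red cell production. A few members have paralogues with narrower expression, such as Rpl3l of heart and skeletal muscle and Rpl39l of the testis.

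Promoter sequence was examined because the genes are produced together in most cells. RefSeq windows of GRCm38.p6, each of 300 bases (250 before and 50 after the annotated start), were found for 52 of the 60 genes, 63 windows in all. The ETS core CGGAAG, searched on both strands, was in 63.5% of the members' windows, in 29.4% of the 9743 windows of all genes tested and in 16.9% of all 32851 windows. The pyrimidine run CTTTCC, searched the same way, was in 50.8%, 26.6% and 26.6% of these windows. AAGATGGC, the core bound by the factor YY1, was in 12.7%, 4.24% and 2.75%. A match to CGGAAG can share its last letters, AAG, with one to AAGATGGC, and a match is a description of the sequence only. CGGAAG was in the windows of 3 of 7 genes that rose in the lines against LinNeg_BM, of 3 of 4 that fell and of 31 of 41 that did not pass the test. The windows below run from 120 bases before to 20 bases after the listed start, and are shown for genes that differed most reliably or that hold a match there. Capitals mark a match to CGGAAG (or CTTCCG on the other strand) or to CTTTCC, and Rpl3l is given as a member without one.
Rps9, chr7:3703921-3704060, plus strand: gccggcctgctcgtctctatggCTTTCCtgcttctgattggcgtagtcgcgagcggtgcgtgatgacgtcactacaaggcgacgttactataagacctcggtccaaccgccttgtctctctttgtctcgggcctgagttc
Rps3a1, chr3:86142649-86142788, minus strand: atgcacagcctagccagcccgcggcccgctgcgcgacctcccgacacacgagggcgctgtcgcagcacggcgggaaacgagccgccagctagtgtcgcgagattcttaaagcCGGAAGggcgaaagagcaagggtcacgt
Rpl37a, chr1:72711140-72711279, plus strand: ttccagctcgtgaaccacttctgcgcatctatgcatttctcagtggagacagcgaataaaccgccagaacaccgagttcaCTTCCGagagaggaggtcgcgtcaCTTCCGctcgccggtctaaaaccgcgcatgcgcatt
Rps27l, chr9:66945966-66946105, plus strand: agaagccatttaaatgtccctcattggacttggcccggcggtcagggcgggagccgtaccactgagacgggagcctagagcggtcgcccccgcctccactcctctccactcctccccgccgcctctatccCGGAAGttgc
Rpl3l, chr17:24727706-24727845, plus strand: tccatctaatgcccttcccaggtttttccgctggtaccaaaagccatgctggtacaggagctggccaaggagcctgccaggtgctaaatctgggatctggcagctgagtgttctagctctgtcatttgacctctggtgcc
Rps9, Rps3a1 and Rpl37a fell in the lines against LinNeg_BM, and Rps27l and Rpl3l rose. For Rps9 and Rps27l the listed start is not the outer end of the gene in RefSeq.

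The ribosomal protein probes took a like share of the signal on every array. The 73 member probes took between 6.34% (MEF_iPSC) and 6.75% (LinPos_iPSC) of the summed deposited intensity, with 6.50% in LinNeg_BM and 6.54% to 6.71% in the 3 lines. After quantile normalization the median log2 level of the 60 genes lay between 13.70 (ESC) and 13.93 (LinNeg_BM), with 13.75, 13.83 and 13.87 in lines 1.1.2, 7 and 9. The signal of a probe depends on its sequence as well as on its transcript, so levels do not order the members by abundance. The deposited table holds no flag for saturated probes.

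The members' median SD over the 3 lines was 0.07 on the log2 scale, against 0.17 for all 9263 genes. Over the 6 pluripotent arrays the median range of a member was 0.22, against 0.64 for all genes. Within a range of 0.3 stayed 38 of the 60 members and 1077 of all 9263 genes. The same values were taken at like signal, with the genes split at a mean level of 13, a value chosen after seeing the data. At or above it the median SD was 0.06 for the 39 members and 0.06 for all 139 genes, which include these members. The median range was 0.17 and 0.22. Below that level the median SD was 0.13 for the 21 members and 0.17 for all 9124 genes, and the median range 0.55 and 0.65. The part of signal in the members' narrow spread was not tested. Rps26, a small subunit protein mutated in Diamond-Blackfan anaemia, had the narrowest range, 0.01, at 14.16, 14.16 and 14.17 in the lines, 14.16 in ESC, LinPos_iPSC and MEF_iPSC, and 14.29 in LinNeg_BM. Quantile normalization gives equal ranks equal values, so such narrow ranges are ties of rank as much as of signal. Rpl39 of the large subunit, for example, was 14.12 in all 3 lines from deposited intensities of 16771, 16875 and 13609. At the other end, 5 members and 1949 of all genes ranged over more than 1 unit within the pluripotent arrays. These members were Rpl39l (from 4.64 in LinPos_iPSC to 6.15 in line 9), Rpl21 (1.44), Rpl3l (1.31), Rps15a (1.24) and Rps3 (1.22). Rpl21, Rpl3l and Rps15a were dim, with deposited intensities on these arrays of 141.8 to 232.1, 188 to 422.8 and 164.7 to 261.7. The second probes of Rpl21 and Rps3 ranged less, over 0.71 and 0.445. The largest SDs between lines were those of Rpl39l (0.78), Rpl22l1 (0.37) and Rpsa (0.36). Their mean levels in the lines were 5.52, 7.89 and 4.97. Rpl39l was above background in 2 of the 3 lines and Rpsa in 0, so their SDs include the spread of the background.

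**Figure D1:**
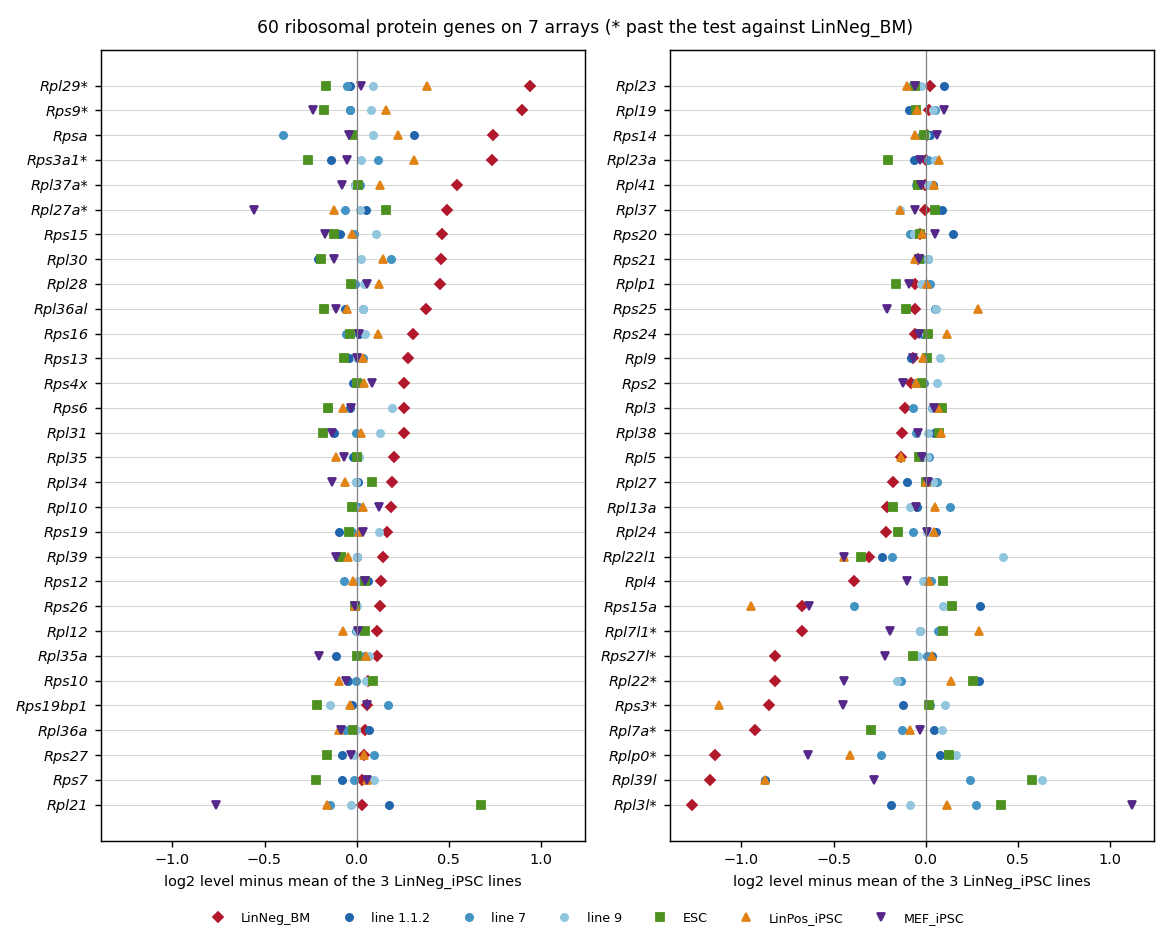
Log2 level of each of the 60 genes on each of the 7 arrays, minus the mean of the 3 LinNeg_iPSC lines, with genes ordered by the difference from LinNeg_BM and an asterisk for those past the test (limma, adjusted p under 0.05). For most genes the 6 pluripotent arrays sit close to 0, while LinNeg_BM is furthest right for Rpl29 (0.94 above the lines) and furthest left for Rpl3l (1.27 below them).

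The comparison of the 3 lines with LinNeg_BM asks how the ribosomal protein genes differ between the cells of origin and the pluripotent lines made from them. Of the 60 genes 12 passed the test (limma, Benjamini-Hochberg adjusted p under 0.05), 7 higher and 5 lower in the lines. Of all genes tested, 59.5% passed, 29.6% higher and 29.9% lower, so a smaller share of the members was called (20%). The members' median difference was -0.03 on the log2 scale, and that of all genes was 0.02. Of the 22 small subunit genes 1 rose and 2 fell (median difference -0.10), and of the 31 large subunit genes 3 rose and 3 fell (median difference -0.02). Of the 7 paralogues and partners 3 rose and 0 fell (median difference 0.67). All 3 lines were above LinNeg_BM for 21 members and below it for 25, against 44.5% and 43.2% of all genes. LinNeg_BM lay above all 6 pluripotent arrays for 24 of the 60 genes and below all of them for 14, against 38.2% and 39.7% of all genes.

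These counts moved with the scaling between arrays. With arrays scaled to the median of all probes, which lies at the background, 1 member rose and 13 fell. Of all 9263 genes 1990 rose and 3997 fell, and the median difference was -0.31 in the members beside -0.39 for all genes. Scaling to the median of probes above background on all 7 arrays was added after the data were seen. It gave 10 rises and 3 falls in the members and 3305 and 2613 in all genes. The median difference was 0.23 beside 0.15 for all genes. With cyclic loess 5 members rose and 13 fell, against 2601 and 3171 of all genes, and the median was -0.26 beside -0.09. Relative to the median of all genes, the members lay at -0.04 in the quantile-normalized values, at 0.07 under both median scalings and at -0.17 under loess, so no direction of the group as a whole is given. With an intensity trend in limma's prior variance 21 members passed, 8 higher and 13 lower, including all 12 genes above. That was 35% of the members, while 62.2% of all genes passed in that setting (2896 higher and 2862 lower). Scaling to all probes ended every rise but that of Rpl3l. Loess ended those of Rpl22 (difference 0.55, limma, adjusted p = 0.098) and Rpl7l1 (difference 0.39, limma, adjusted p = 0.0825). With the authors' values the rise of Rpl22 (difference 0.83, limma, adjusted p = 0.0586) and the falls of Rpl37a (difference -0.54, limma, adjusted p = 0.0541) and Rpl27a (difference -0.50, limma, adjusted p = 0.0721) missed the threshold at nearly the same size.

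The populations compared also differ in cell type. Of 10 granulocyte-monocyte markers 9 were measured. All 9 were above background in LinNeg_BM and 0 in each line, with a summed deposited intensity of 145190 against 797 to 972. All 7 measured of 10 erythroid and all 5 measured of 8 B lymphoid markers were above background in LinNeg_BM, against 1 or 2 of each list in a line. A measured marker had to be above background on at least 1 array, so these detection counts were partly set by that filter. Of 10 pluripotency markers 1 was above background in LinNeg_BM and 10 in each line, with summed intensities of 2250 and 48400 to 64494. Of 8 fibroblast or feeder markers 5 were measured, with 1 above background in LinNeg_BM and 4, 5 and 4 in lines 1.1.2, 7 and 9. Their summed intensities were 1196 in LinNeg_BM and 1497, 4324 and 1449 in these lines, and 2 of the 5 rose. The part of these cell types in the ribosomal protein differences was not tested, and in bulk RNA a change in the makeup of the cells and a change of RNA per cell cannot be told apart.

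Among the genes lower in the lines, Rpl29, a large subunit protein also known as a heparin-binding protein, stood at 13.30 in LinNeg_BM. It measured 12.33, 12.31 and 12.45 in lines 1.1.2, 7 and 9, 12.20 in ESC, 12.75 in LinPos_iPSC and 12.39 in MEF_iPSC. LinNeg_BM was thus above every pluripotent array, and the level fell by 0.94 ± 0.17 (SE, 1.92-fold; limma, adjusted p = 0.00613). A dimmer Rpl29 probe moved the same way, from 11.67 in LinNeg_BM to 11.19, 10.98 and 11.18 in the lines, but stood at 11.90 in LinPos_iPSC, above LinNeg_BM.

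Rps9, a small subunit protein at the entry of the messenger RNA channel, stood at 14.43 in LinNeg_BM and at 13.49, 13.49 and 13.61 in the lines. It was 13.36 in ESC, 13.69 in LinPos_iPSC and 13.29 in MEF_iPSC, all below LinNeg_BM. Its level fell by 0.90 ± 0.16 (SE, 1.86-fold; limma, adjusted p = 0.00679). The other Rps9 probe stood at 13.80 in LinNeg_BM and at 13.34, 13.25 and 13.32 in the lines, again without overlap. Rps3a1, a small subunit protein near the exit of that channel, measured 11.76 in LinNeg_BM and 10.88, 11.14 and 11.05 in the lines. LinPos_iPSC was nearest to LinNeg_BM, at 11.33, with 10.75 in ESC and 10.97 in MEF_iPSC, and the fall in the lines was 1.66-fold (limma, adjusted p = 0.0193).

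Rpl37a and Rpl27a, both of the large subunit, had the smallest falls. Rpl37a was 14.12 in LinNeg_BM, 13.56, 13.59 and 13.56 in the lines and 13.49 to 13.70 on the other pluripotent arrays (difference -0.54, limma, adjusted p = 0.0315). Rpl27a was 11.25 in LinNeg_BM, 10.81, 10.69 and 10.78 in the lines, 10.92 in ESC, 10.64 in LinPos_iPSC and 10.21 in MEF_iPSC (difference -0.49, limma, adjusted p = 0.0469). No array overlapped LinNeg_BM for either gene. Both calls were lost when any of the lines was left out, with limma adjusted p-values of 0.0542 to 0.0815 for Rpl37a and 0.0623 to 0.126 for Rpl27a, so 3 falls remained in each such fit. With arrays scaled to probes above background on all arrays, the differences were -0.28 for Rpl37a (limma, adjusted p = 0.192) and -0.46 for Rpl27a (limma, adjusted p = 0.0615). Rpl27a also missed the threshold with every probe tested (limma, adjusted p = 0.0527) and with the 6 pluripotent arrays as 1 group (limma, adjusted p = 0.0866).

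Rplp0 had the largest rise among the canonical ribosomal proteins. It encodes the base of the stalk that recruits the elongation factors to the large subunit. The level was 9.40 in LinNeg_BM, 10.62, 10.30 and 10.71 in the lines, 10.67 in ESC, 10.13 in LinPos_iPSC and 9.90 in MEF_iPSC. All 6 pluripotent arrays were above LinNeg_BM, and the lines were 2.21-fold higher (difference 1.15 ± 0.22 SE; limma, adjusted p = 0.00796). A second, dim Rplp0 probe ran the other way, at 6.04 in LinNeg_BM and at 5.61, 5.41 and 5.69 in the lines, and the call was lost with the mean of a gene's probes (difference 0.34, limma, adjusted p = 0.197).

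Rpl7a, a large subunit protein, was 11.48 in LinNeg_BM and 12.45, 12.28 and 12.50 in the lines, with 12.11 in ESC, 12.32 in LinPos_iPSC and 12.38 in MEF_iPSC. LinNeg_BM was below every other array, and the rise was 1.90-fold (limma, adjusted p = 0.00805). Rpl22, a large subunit protein needed for T cell development in mice, was 10.67 in LinNeg_BM and 11.78, 11.35 and 11.33 in the lines (1.76-fold, limma, adjusted p = 0.0327). ESC and LinPos_iPSC lay near line 1.1.2 at 11.75 and 11.63, and MEF_iPSC was lowest of the pluripotent arrays at 11.04.

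Rps3, a small subunit protein at the channel entry that also has a role in DNA repair, was 13.09 in LinNeg_BM and 13.82, 13.96 and 14.04 in the lines. The rise was 1.80-fold (limma, adjusted p = 0.0106). The other pluripotent arrays did not follow as a group, with 13.95 in ESC, 13.49 in MEF_iPSC and 12.82 in LinPos_iPSC, the last below LinNeg_BM. With the 6 pluripotent arrays as 1 group the Rps3 difference was 0.59 (limma, adjusted p = 0.264). A second Rps3 probe was higher in LinNeg_BM, at 13.67, than in the lines, at 12.996, 13.20 and 13.44, so the direction depends on the probe. With the mean of both probes the difference was 0.20 (limma, adjusted p = 0.423).

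**Figure D2:**
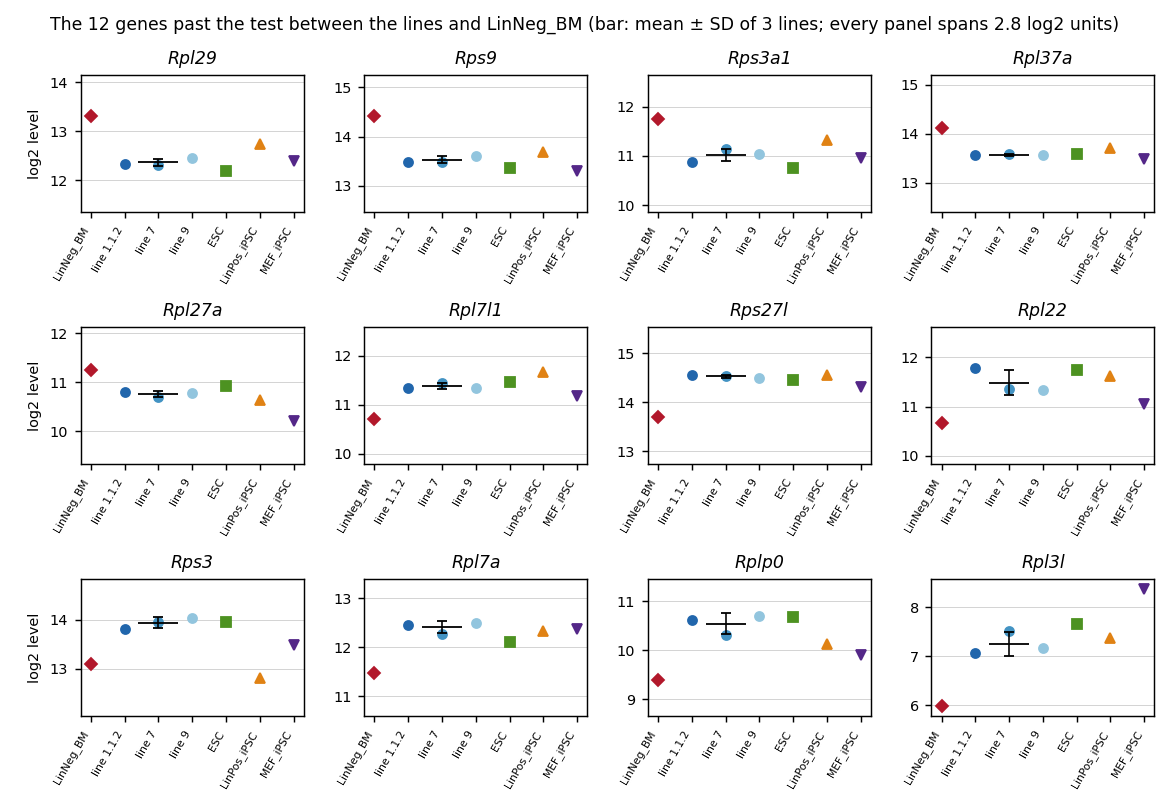
Normalized log2 level on each array of the 12 genes past the test between the lines and LinNeg_BM, with a bar for the mean and SD of the 3 lines, each panel spanning the same height. For Rpl29, Rps9, Rps3a1, Rpl37a and Rpl27a the LinNeg_BM diamond lies above all other points, and for Rps3 the LinPos_iPSC point (12.82) lies below LinNeg_BM (13.09).

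The paralogues gave 3 of the 7 rises. Rpl3l, the muscle paralogue of Rpl3, was 5.98 in LinNeg_BM and 7.06, 7.52 and 7.16 in the lines, with 7.66 in ESC, 7.37 in LinPos_iPSC and 8.37 in MEF_iPSC. All 6 pluripotent arrays were above LinNeg_BM, and the lines were 2.41-fold higher (difference 1.27 ± 0.23 SE; limma, adjusted p = 0.00722). The Rpl3l probe was dim, with deposited intensities of 172.4 in LinNeg_BM and 212.7, 265.5 and 188 in the lines. The difference of Rpl3l ran from 0.65 to 1.61 over the other settings and the fits without a line. Its canonical partner Rpl3 was bright and nearly level, at 14.19 in LinNeg_BM and 14.34, 14.23 and 14.34 in the lines. Rpl3 had a difference of 0.11 (limma, adjusted p = 0.58).

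Rps27l, a paralogue of Rps27 known as a target of p53, was 13.71 in LinNeg_BM and 14.56, 14.53 and 14.49 in the lines, with 14.30 to 14.56 on the other pluripotent arrays. It rose 1.76-fold without overlap (limma, adjusted p = 0.00845), while Rps27 measured 13.91 in LinNeg_BM and 13.79, 13.97 and 13.85 in the lines (difference -0.04, limma, adjusted p = 0.85). Rpl7l1, a Rpl7-like factor of large subunit assembly, was 10.70 in LinNeg_BM and 11.34, 11.44 and 11.34 in the lines (1.59-fold, limma, adjusted p = 0.0174). ESC, LinPos_iPSC and MEF_iPSC were at 11.47, 11.67 and 11.18, again all higher. A second, dimmer Rpl7l1 probe had a difference of 0.67, equal in size to the first, but did not pass (limma, probe by probe, adjusted p = 0.131). That probe stood at 6.50 in LinNeg_BM and at 7.54, 6.74 and 7.25 in the lines. The Rpl7l1 call was lost without line 7 (limma, adjusted p = 0.0553).

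The remaining paralogues did not pass. Rpl39l, the testis paralogue of Rpl39, was below background in LinNeg_BM (4.34), in line 1.1.2 (4.65), in LinPos_iPSC (4.64) and in MEF_iPSC (5.24). It was above background in lines 7 (5.76) and 9 (6.15) and in ESC (6.09), so the lines disagreed among themselves (limma, adjusted p = 0.139). No fold is given, since the mean of the lines was not above the bound that the background of LinNeg_BM sets. It passed without line 1.1.2 (limma, adjusted p = 0.00828), with normexp background correction (limma, adjusted p = 0.0223), without background correction and with scaling to probes above background. Rpl22l1, the paralogue whose splicing Rpl22 represses, was 7.58 in LinNeg_BM and 7.65, 7.70 and 8.31 in the lines (limma, adjusted p = 0.421). Rpl36al, a paralogue of Rpl36a, was 13.88 in LinNeg_BM and 13.44, 13.54 and 13.54 in the lines (difference -0.38, limma, adjusted p = 0.0953), and passed in 6 other settings. These were an intensity trend (limma, adjusted p = 0.00581), normexp (0.0495), no background correction (0.027), scaling to the median of all probes (0.0243), cyclic loess (0.0269) and the 6 pluripotent arrays as 1 group (0.0469). Rps19bp1, which binds Rps19 and the deacetylase SIRT1, had a difference of -0.06.

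Rps19, Rps24 and Rpl5, whose human counterparts are mutated in Diamond-Blackfan anaemia, did not pass on the probes that stood for them. Rps19, of the small subunit, was 14.58 in LinNeg_BM and 14.32, 14.39 and 14.54 in the lines (difference -0.17, limma, adjusted p = 0.448). Rps24, also of the small subunit, had a difference of 0.06 on its brighter probe, with 14.59 in LinNeg_BM and 14.64, 14.66 and 14.65 in the lines. Rpl5, which binds Mdm2 together with the ribosomal RNA of the large subunit, was 13.77 in LinNeg_BM and 13.88, 13.92 and 13.91 in the lines (difference 0.13, limma, adjusted p = 0.5). A dim second probe of Rps19 had a difference of 0.35 (limma, probe by probe, adjusted p = 0.283), and that of Rps24, described with the other second probes, passed. A p-value that misses the threshold does not show that levels were equal.

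Several other members, most with known separate roles, also had no call in the reported fit. Rps6, the substrate of the ribosomal S6 kinases, was 13.96 in LinNeg_BM and 13.67, 13.55 and 13.89 in the lines (difference -0.26, limma, adjusted p = 0.317). Rps4x, the X-linked small subunit gene, had a difference of -0.26 (past the test only with the trend or loess), Rpl10 of -0.19, Rplp1 of the stalk of 0.06 and Rpl38, whose loss in mice alters translation of Hox messenger RNAs, of 0.13. Rpsa, which also serves as a laminin receptor, was above background in LinNeg_BM alone (5.71) and below it in the lines (5.28, 4.58 and 5.06), at least 1.13-fold lower. It entered the tested genes only through LinNeg_BM, its single detection, so no test of it is given. The deposited intensity of this dim probe was 159.2 in LinNeg_BM and 103.6 to 128 in the lines. A second Rpsa probe was above background on no array. Rps15a was 6.51 in LinNeg_BM and 7.48, 6.79 and 7.28 in the lines (difference 0.67, limma, adjusted p = 0.107), and passed without line 7 (limma, adjusted p = 0.0288) and with scaling to probes above background on all arrays (limma, adjusted p = 0.0269).

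Bright and dim members differed in how far they moved. With the genes split at a mean level of 13, as above, 39 members were bright and 4 of them passed (10.3%), while 45 of all 139 genes that bright did (32.4%). Of the 21 members below that level 8 passed (38.1%), against 59.9% of all genes below it. The median size of the difference was 0.13 in the bright members and 0.49 in the others, against 0.25 and 0.84 for all genes at those levels. Compression of bright signals on the array was not tested.

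**Figure D3:**
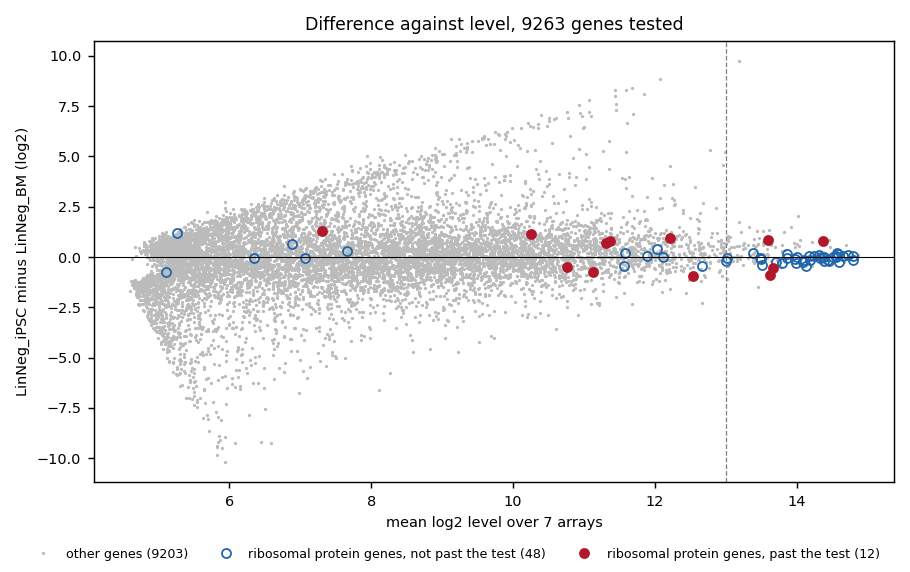
Difference of the lines from LinNeg_BM (log2) against the mean log2 level over the 7 arrays for 9263 genes tested, with ribosomal protein genes as circles and the split at 13 as a dashed line. The 39 members right of the line lie mostly within 0.5 of 0, and 8 of the 12 filled circles lie left of it.

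Where a gene had several probes, they often differed. For 12 genes 25 probes were above background, and in 5 genes all probes had a difference from LinNeg_BM of 1 sign, in 7 genes of both (Rpl21, Rpl23, Rpl31, Rpl4, Rplp0, Rps19 and Rps3). In 8 of the 12 the dimmest probe had the higher difference. For Rps24 the dim probe stood at 9.03 in LinNeg_BM and at 10.11, 9.66 and 9.86 in the lines, a difference of 0.85 against 0.06 on the bright one. For Rpl23, a large subunit protein that also binds Mdm2, both bright probes had differences of -0.02 and -0.06 and the dim one of 0.57. Tested probe by probe, the dim probes of Rps24 (limma, adjusted p = 0.0233) and Rpl23 (limma, adjusted p = 0.0445) were higher in the lines, and the second probes of Rps9 (limma, adjusted p = 0.0489) and Rpl29 (limma, adjusted p = 0.0486) lower. Of all 12662 probes tested in that way 30.7% were higher and 28.4% lower. Ribosomal protein genes have many processed pseudogenes in the mouse genome, and the match of the probes to such copies was not checked.

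**Figure D4:**
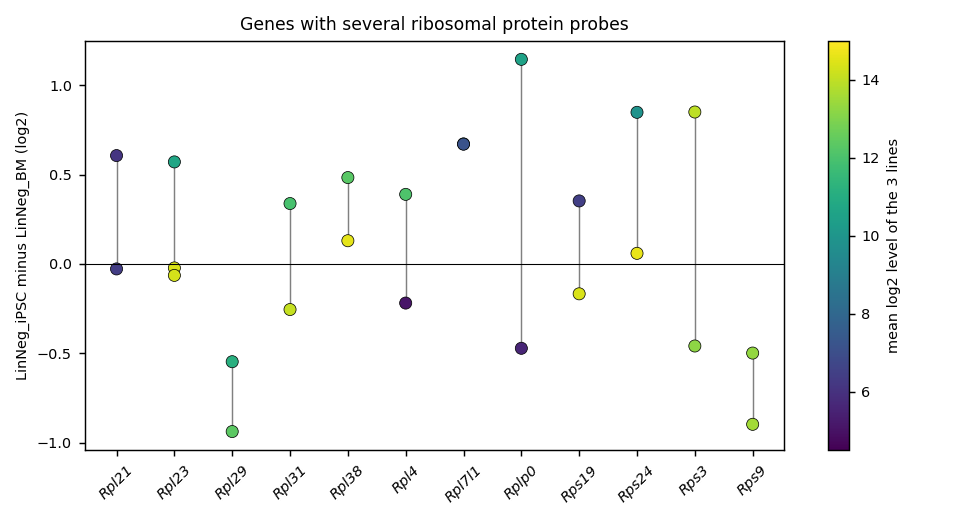
Difference of the lines from LinNeg_BM (log2) for every probe of the 12 genes with several probes above background, joined by a line within a gene and coloured by the mean log2 level of the lines. The widest gap is in Rplp0 (1.15 and -0.47), and Rps9 and Rpl29 have both probes below 0.

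Other genes of the same pathway were counted by list. Beside these counts, 29.6% of all genes tested were higher and 29.9% lower in the lines against LinNeg_BM. Of 50 ribosome assembly genes 40 were measured, and 21 rose and 2 fell in the lines against LinNeg_BM (median difference 0.58). Rrp1b, a nucleolar protein, was 7.51 in LinNeg_BM and 11.15 ± 0.02 (SD, n = 3) in the lines, 12.4-fold higher (limma, adjusted p = 7.28e-05). Nmd3, the export adaptor of the large subunit, rose 3.39-fold, Nip7 3.24-fold and Nop56 of the box C/D particles 3.12-fold (limma, adjusted p = 0.00146, 0.00194 and 0.000816). The 2 falls were nucleolin, Ncl (1.454-fold; limma, adjusted p = 0.0343) and Nolc1, a nucleolar chaperone (at least 1.36-fold; limma, adjusted p = 0.037). Over 14 other settings 7 to 24 of these genes rose and 0 to 4 fell, with a median difference between 0.03 and 0.62.

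Of 26 initiation factors and their regulators 20 were measured, and 8 rose and 0 fell (median difference 0.31), beside 29.6% and 29.9% of all genes. The largest rises were those of Eif4ebp2 (6.42-fold), a repressor of cap-dependent initiation, Eif2s2 (6.19-fold), the beta subunit of the factor that carries the initiator tRNA, Eif4g2 (4.59-fold) and Eif4ebp1 (3.69-fold). Their limma adjusted p-values were 0.000262, 0.00466, 0.000802 and 0.000603. Over the other settings 5 to 10 rose and 0 to 4 fell, and the lowest median difference was 0.01.

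Of 18 elongation factors and other genes with terminal oligopyrimidine messenger RNAs 13 were measured. Of these 4 rose and 2 fell, beside 29.6% and 29.9% of all genes. Eef2, the translocation factor (5.11-fold), Eif4b (3.49-fold), Hnrnpa1 (2.49-fold) and Npm1 (1.41-fold) rose, and Eif3f (1.43-fold) and Fau (2.11-fold) fell. Fau encodes the small subunit protein eS30 as a fusion, outside the symbols followed here, and stood at 13.95 in LinNeg_BM and 12.88 ± 0.08 (SD, n = 3) in the lines (limma, adjusted p = 0.00388). The median difference of this list was 0.15, between -0.26 and 0.49 over the other settings, so its direction is not settled. Of 14 RNA polymerase I genes 7 were measured, and Taf1d (6.37-fold), Polr1c (1.88-fold) and Polr1e (1.57-fold) rose while Ubtf, the upstream binding factor of ribosomal DNA, fell (1.99-fold; limma, adjusted p = 0.00946).

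Among 13 regulators 7 were measured. Myc, which drives ribosome production, was 7.10 in LinNeg_BM and below background in all 3 lines, at least 2.95-fold lower. It was above background on no other array and entered the tested genes only through LinNeg_BM, so no test of it is given. Its partner Max fell 1.68-fold (limma, adjusted p = 0.0144). Mycl rose 2.81-fold (limma, adjusted p = 0.002). Mdm2, the ubiquitin ligase of p53 that Rpl5 and Rpl23 bind, rose 2.91-fold (limma, adjusted p = 0.00229). Of the mTOR inhibitors, Tsc1 rose at least 1.49-fold (limma, adjusted p = 0.013) and Tsc2 fell 1.92-fold (limma, adjusted p = 0.0175).

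**Figure D5:**
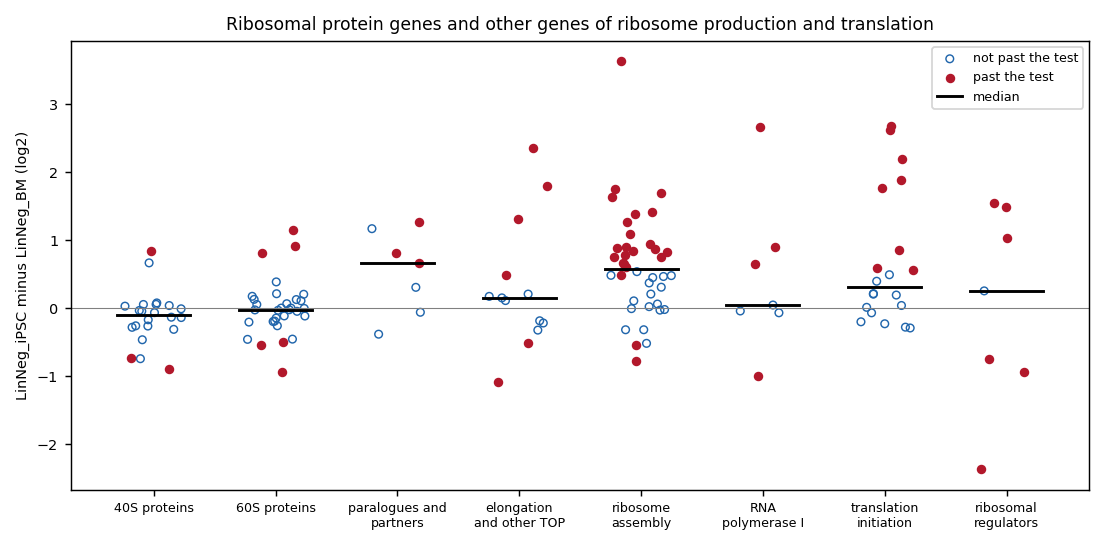
Difference of the lines from LinNeg_BM (log2) for each measured gene of the ribosomal protein classes and of 5 other lists, with filled points past the test and bars at the medians. The 40S and 60S points lie within 1.2 of 0 with medians of -0.10 and -0.02, while the ribosome assembly list has a median of 0.58 and reaches 3.64.

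The remaining comparisons set the same 3 lines against ESC, MEF_iPSC and LinPos_iPSC, and so share these lines. Of the 60 members 0 passed against ESC, where 0% of all genes passed. At an unadjusted limma p under 0.05, 1 member was lower and 0 higher, beside 4.63% and 5.69% of all genes, and the members' median difference was 0.03. The lines were all above ESC for 24 members and all below it for 10, against 28.4% and 30.2% of all genes. Rpl21, of the large subunit, was the 1 member past the unadjusted threshold, at 7.06 in ESC and 6.56, 6.24 and 6.35 in the lines (difference -0.67, limma, adjusted p = 0.424). MEF_iPSC was lowest for this gene at 5.62, with 6.22 in LinPos_iPSC and 6.41 in LinNeg_BM. A second Rpl21 probe was 6.30 in ESC and 6.19, 6.26 and 5.88 in the lines, a difference of -0.19. Next to Rpl21 in the gap below ESC came Rpl3l (difference -0.41), Rpl27a, Rpl34 and Rpl4, and above it Rpl7a (difference 0.30), Rps7, Rpl23a, Rps9 and Rplp1.

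Against MEF_iPSC 0 of the 60 members passed, where 0.0756% of all genes did (0.054% higher and 0.0216% lower). At an unadjusted limma p under 0.05, 4 members were higher in the lines and 1 lower, beside 6.62% and 6.35% of all genes, and the members' median difference was 0.05. All 3 lines were above MEF_iPSC for 27 members and below it for 8, against 29.6% and 31.3% of all genes. The lower one was Rpl3l, at 8.37 in MEF_iPSC and below that on every other array, with the line nearest to it at 7.52 (difference -1.12, limma, adjusted p = 0.199). The 4 higher ones were Rpl21 (difference 0.76, limma, adjusted p = 0.248), Rplp0 (difference 0.64, limma, adjusted p = 0.331), Rpl27a (difference 0.55, limma, adjusted p = 0.29) and Rps3 (difference 0.45, limma, adjusted p = 0.383). In each of them all 3 lines were above MEF_iPSC. Rpl22 was also above it in all lines, with a difference of 0.44. Below MEF_iPSC the next gaps after Rpl3l were small, those of Rpl10 (difference -0.12), Rpl19, Rps4x and Rps14. The summed intensity of 5 fibroblast markers was 1972 in MEF_iPSC and 1449 to 4324 in the lines, and 3 and 4 to 5 of them were above background.

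Against LinPos_iPSC 0 of the 60 members passed, where 0.313% of all genes did (0.281% higher and 0.0324% lower). At an unadjusted limma p under 0.05, 2 members were higher in the lines and 0 lower, beside 8.27% and 7.86% of all genes, and the members' median difference was -0.01. All 3 lines were above LinPos_iPSC for 18 members and below it for 15, against 31.9% and 31.4% of all genes. Rps3 had the widest gap, with 12.82 in LinPos_iPSC and 13.82 to 14.04 in the lines (difference 1.12 ± 0.18 SE; limma, adjusted p = 0.0915). It passed with an intensity trend in the prior (difference 1.12, limma, adjusted p = 0.00459), with normexp background correction and without background correction. In these settings 1.95%, 2.35% and 2.9% of all genes passed. The second Rps3 probe stood at 13.30 in LinPos_iPSC, inside the lines' range of 12.996 to 13.44. Rps15a, the other gene past the unadjusted threshold, was 6.24 in LinPos_iPSC and 6.79 to 7.48 in the lines (difference 0.95, limma, adjusted p = 0.233). By the gap between LinPos_iPSC and the nearest line, Rpl22l1, Rplp0 and Rpl5 came next, with gaps of 0.21, 0.17 and 0.11 and differences of 0.44, 0.41 and 0.13. Below it lay Rpl29 (difference -0.38), Rps3a1 (-0.31), Rpl7l1 (-0.29), Rps25 (-0.28) and Rpl37a. On the probes that stood for them, Rpl29, Rps3a1, Rpl37a and Rps9 (13.69 in LinPos_iPSC) were higher in LinPos_iPSC than in any of the 3 lines and lower than in LinNeg_BM. Rpl27a, the remaining gene called lower against LinNeg_BM, went the other way, at 10.64 in LinPos_iPSC and 10.69 to 10.81 in the lines. The share of all genes with such an order was not counted. The second Rpl29 probe was highest in LinPos_iPSC. The 5 lists of other translation genes had 0 members past the test in each of the 3 comparisons within pluripotent cells.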

How the data were processed

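Biotin-labelled cRNA was made from total RNA (12 h of in vitro transcription), per the labels' protocols. The deposited table held a linear intensity and a detection p-value for each probe and array, and a second deposited table held the authors' processed log2 values, used as an alternative. Per the submitters' processing notes, the tools were BeadStudio 3.2, lumi and RMA, with no role stated.

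Intensities were background-corrected and quantile-normalized with limma 3.58.1 (neqc, offset 16) in R 4.3.3 and taken to log2. Each gene was represented by its brightest probe on average among those above background, named through the platform annotation (1719 probes had no gene there). One limma fit with 5 groups (lmFit, eBayes; 2 residual and 3.157 prior degrees of freedom, all from the 3 lines) covered 9263 genes, with Benjamini-Hochberg adjustment within each of 4 comparisons and a threshold of 0.05. The spread of the lines was applied to each single array, and the number of arrays limits the precision. Where a group was below background, a fold is a lower bound (at least N-fold), set by the dimmest detected probe of that array where this exceeds the measured value. The fit was tested on simulated data in which every array was given the spread of the lines. That simulation left out normalization and could not test whether a single array varies like the lines. The members, lists and alternatives were chosen with earlier results of these data known. Named genes were the largest calls in each direction (or the 5 widest gaps where fewer than 3 passed), and paralogues and their partners. Also named were a set of well-known members, those with extreme spread, up to 4 leading genes of each list and genes with probes of opposite sign. Second probes of Rpl29, Rps9, Rps24, Rpl7l1 and Rpsa, and Fau, Ncl and Nolc1, were named after their values were seen. No column of values was left unused (0).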

Additional observations from a re-analysis of the deposited data

How the results depend on the processing

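Against LinNeg_BM the lower calls numbered 8 with normexp background correction, 9 without background correction, 13 with scaling to the median of all probes (1 higher), 13 with cyclic loess, 3 with scaling to probes above background on all arrays, 3 with the authors' values, 13 of 21 calls with an intensity trend, 8 with the 6 pluripotent arrays as 1 group and 3 to 3 when each line was left out. Of all 9263 genes the lower calls numbered 2892, 2870, 3997, 3171, 2613 and 2473 in these settings, in that order up to the authors' values. They numbered 2862 with the trend, 2643 with the 6 arrays as 1 group and 2468 to 2669 without a line. The members' median difference was -0.31 with scaling to all probes, 0.23 with scaling to probes above background and -0.26 with loess. It was 0.0021 with the mean of a gene's probes, -0.054 with 6 arrays as 1 group and -0.04 to -0.0154 without a line. Against ESC it was -0.20, -0.0138 and 0.0947 under these 3 scalings. Against MEF_iPSC it was -0.0476 with scaling to all probes, 0.11 with loess and 0.0353 to 0.0615 without a line. Against LinPos_iPSC it was -0.22 and -0.0556 under both median scalings and -0.0179 to 0.0065 without a line. In that comparison 1 gene, Rps3, passed with normexp, without background correction and with the trend (1.67% of the members). Of all genes 2.35%, 2.9% and 1.95% passed in these settings. The range of the array medians, 0.24, became 0.41 with scaling to all probes and 0.46 with loess. The cause of these shifts was not tested. Rpl29, Rps9, Rps3a1 and Rpl3l passed in all 12 other settings and without each line; Rpl7a and Rps27l failed only with scaling to all probes. Of 959 values for 66 single-gene differences, 25 lost and 23 gained a call and 0 turned direction against a called value. These settings are not independent checks. Detection on at least 3 arrays, no filter on dim probes, every probe tested and the intensity trend use the normalized values of the reported fit. There the difference of a given probe could not change, only its p-value. No paired analysis was run because no donor or pairing is named in the sources used here, and each group but LinNeg_iPSC had 1 array. The slide block was not run because no slide is named there. With 1 array in each group but LinNeg_iPSC and unknown saturation, small differences of the brightest members are the least certain.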
